A study of Mus musculus with 60 samples.

Results

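The arrays described here are 10 fetal brain arrays of mice that carry the human paraoxonase transgene tgHuPON1R192 (R-tg), 5 from dams given chlorpyrifos oxon (CPO) at 0.75 mg/kg/d and 5 from dams given dose 0, out of 60 arrays in all. Their group names are inferred and differ from those deposited. The labels look displaced, so the 60 samples were numbered by group label in text order and then by replicate, and these numbers were sorted as text with the character '_' appended. The label of the first number in that sorted order was then given to the first value column of the deposited table, and so on along the columns. The arrays were thus chosen by column order, an order recognised from the signal of 1 gene, Pon1, which is therefore given below as a description.

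Paraoxonase 1 is a calcium-dependent esterase made mainly in the liver and carried in blood on high density lipoprotein. It hydrolyses CPO, the active metabolite of the insecticide chlorpyrifos, and the human variants with glutamine or arginine at the polymorphic site (Q192, R192) are known to differ in catalytic efficiency towards it. CPO binds the active serine of acetylcholinesterase, the enzyme that ends cholinergic signalling, and also that of other serine hydrolases. In fetal brain, acetylcholine and its receptors are present before most synapses form, and organophosphates have been studied there for effects on neuronal differentiation and axon growth.

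The study exposed pregnant mice that were wild type (WT), PON1-knockout (KO), tgHuPON1Q192 (Q-tg) or R-tg, all on a B6.129 strain background, for 12 days, from gestational day 6 to day 17. Brains of the fetuses were taken on day 18, the RNA of all sampled littermates of a dam was combined, and each such pool was hybridised to 1 Affymetrix Mouse Gene 1.0 ST array. WT, Q-tg and R-tg dams received 0, 0.75 or 0.85 mg/kg/d and KO dams 0, 0.5 or 0.75 mg/kg/d, with 5 arrays in each of 12 groups. Dams whose brain acetylcholinesterase activity lay far from their group's mean were left out by the submitters before a random draw of dams. The 2 groups compared here share the tgHuPON1R192 transgene, the strain background, the tissue and the days of exposure, and differ in the CPO dose. The labels do not name the promoter that drives the transgene, and do not say whether the mouse Pon1 gene of the transgenic dams is intact.

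The expression values are log2 signals normalised by RMA. The table holds 28858 rows, of which 21789 transcript clusters (array features for 1 gene) have exactly 1 gene symbol and were tested. Their values run from 2.1 to 14.045 over the 60 arrays. A log2 signal of 6.54 served as a dim level (95% of 1035 transcript clusters for olfactory receptors had a mean at or below it), and 15611 of the tested transcript clusters had a mean above it. The precision of each value is limited by the number of arrays, 5 in each group.

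Pon1 had a log2 signal below 7 on 15 of 15 reassigned KO arrays, at 4.84 to 5.67, and on 0 of 45 other arrays, which lay at 9.72 to 10.14. Under the labels as deposited, 10 of 15 KO arrays and 5 of 45 other arrays had low Pon1. The 5 R-tg arrays of dose 0 had a Pon1 signal of 10.03, 9.96, 10.002, 9.99 and 10.12, and the 5 of dose 0.75 had 10.11, 9.96, 9.92, 10.01 and 9.91. All 10 therefore fall in the high Pon1 class. The Pon1 check bears only on KO against the rest. It does not test the CPO dose or the distinction of WT, Q-tg and R-tg, and whether the mouse Pon1 transcript cluster also reads transcripts of the human transgene was not tested.

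**Figure D1:**
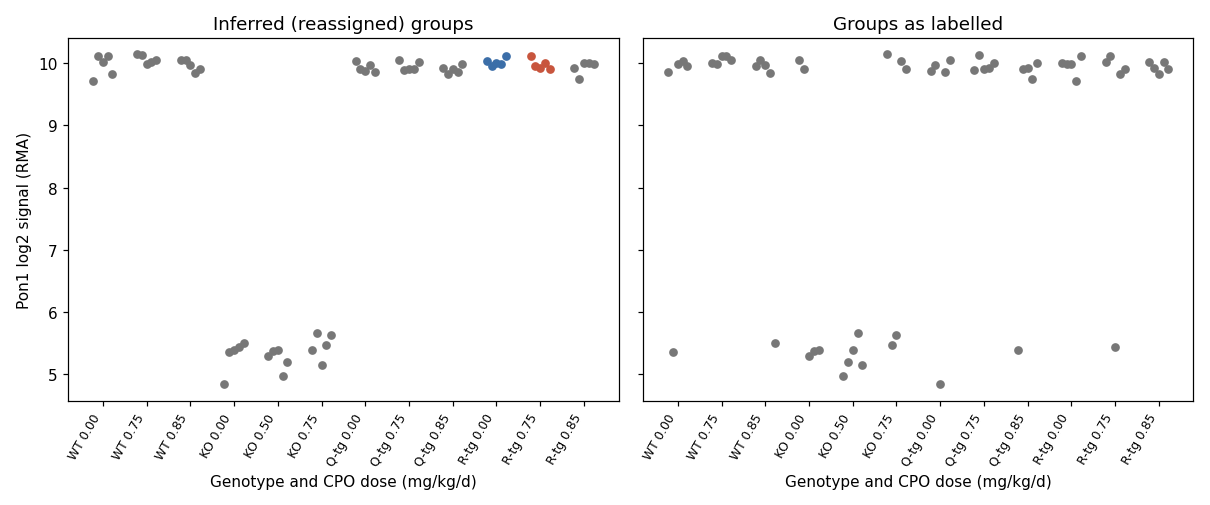
The Pon1 log2 signal (vertical axis) of each of the 60 arrays is plotted by genotype and CPO dose, for the inferred groups on the left and the groups as labelled on the right, with 1 point per array. On the left, low values fall on the 3 KO groups only and the coloured R-tg groups of dose 0 (blue) and 0.75 (red) lie near 10, while on the right low and high arrays mix within groups.

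The reassignment moved all 10 arrays away from their deposited label. 0 of the 10 carry an R-tg label. Of the 5 arrays taken here as R-tg dose 0, 2 are labelled WT dose 0 and 3 are labelled WT dose 0.75. Of the 5 taken as R-tg dose 0.75, 1 is labelled WT dose 0.75, 1 WT dose 0.85, 2 Q-tg dose 0.75 and 1 Q-tg dose 0.85. Over the series, 13 of 60 arrays keep their labelled group.

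Mean levels of other genes also differed between the inferred genotypes, in comparisons added after the values were seen. Averaged over doses 0, 0.75 and 0.85, R-tg and WT differed for 70 of 21789 transcript clusters (0.321%; limma, Benjamini-Hochberg adjusted p under 0.05), 64 higher and 6 lower in R-tg, against 0 under the labels as deposited, where 671 (3.08%) had an unadjusted p under 0.05. R-tg and Q-tg differed for 1335 (6.13%), 1039 higher and 296 lower in R-tg, again against 0 under the deposited labels, with 380 (1.74%) at an unadjusted p under 0.05. Entpd4, a Golgi and lysosomal nucleotidase, lay at a log2 signal of 9.54 to 10.19 on the 15 WT arrays and 9.37 to 9.62 on the 15 R-tg arrays, an R-tg minus WT difference of -0.47 (SE 0.04, adjusted p = 9.06e-12). The KO arrays, at 9.33 to 9.53, and the Q-tg arrays, at 9.33 to 9.67, had like levels of Entpd4, and R-tg minus Q-tg was 0.05 (adjusted p = 0.405), so the level sets WT apart and is not particular to R-tg. Kcna2, a voltage-gated potassium channel, lay at 7.17 to 7.48 on R-tg and 6.75 to 7.25 on Q-tg arrays, an R-tg minus Q-tg difference of 0.25 (SE 0.04, adjusted p = 0.000139). The ranges of both genes overlap between the genotypes. These comparisons show that the inferred genotype groups differ from each other. They cannot tell which group carries which name, since exchanged names would give the same counts, and they do not bear on the doses. The inferred R-tg arrays lie between value columns 24 and 39, and a part of column order in these differences was not tested.

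Markers of fetal brain were high on all 10 arrays. The neuronal genes Tubb3, Stmn2, Dcx, Map2 and Snap25 had log2 signals between 11.26 and 12.94 on all 10 arrays. The radial glia genes Fabp7, Slc1a3, Pax6, Sox2 and Nes lay between 8.21 and 13.38, also above the dim level of 6.54. Correlations between pairs of the 10 arrays ran from 0.994 to 0.998, with a median of 0.997 both within and between the dose groups. They were taken on signal levels, which differ far more between genes than between arrays. A small difference between the dose groups would therefore not show in them.

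CPO at 0.75 mg/kg/d was compared with dose 0 in R-tg fetal brain to find transcripts whose level differs with gestational exposure in mice with the R192 form. No transcript cluster passed the test. Of 21789, 0 (0%) had a limma adjusted p under 0.05, and the smallest adjusted p was 0.999. At an unadjusted p under 0.05 there were 794 (3.64%), 537 (2.46%) with higher and 257 (1.18%) with lower values at dose 0.75. The 5 arrays of one dose did not overlap with the 5 of the other for 185 transcript clusters (0.849%), 105 higher (0.482%) and 80 lower (0.367%) at dose 0.75.

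The differences were small. Their median was 0.015 on the log2 scale with a median SE of 0.064, 60.2% were above 0, and 95% lay between -0.12 and 0.15. A difference beyond 0.5 in either direction was found for 5 transcript clusters, and for each of them a single dose 0 array stood apart from the other 9. Bpifb9b, a secreted protein of nasal glands, had log2 signals of 4.27, 4.18, 4.34, 10.32 and 3.88 at dose 0 and 4.47, 3.98, 4.52, 4.28 and 4.2 at dose 0.75, a difference of -1.11 (SE 0.49) that was 0.12 without R-tg dose 0 replicate 4. Its relative Bpifb9a (-0.83), Ibsp, a bone matrix sialoprotein (-0.75, and 0.03 without replicate 4), and the olfactomedin gene Olfm5 (-0.54) were likewise high on that array alone. Hoxa5, a patterning gene of hindbrain and spinal cord, had 7.68, 8.18, 5.78, 7.27 and 7.96 at dose 0 and 8.28, 7.51, 7.88, 7.97 and 7.84 at dose 0.75. Its low value lies on R-tg dose 0 replicate 3, and its difference of 0.53 (SE 0.34) was 0.13 without that array. All 5 had an adjusted p of 0.999.

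**Figure D2:**
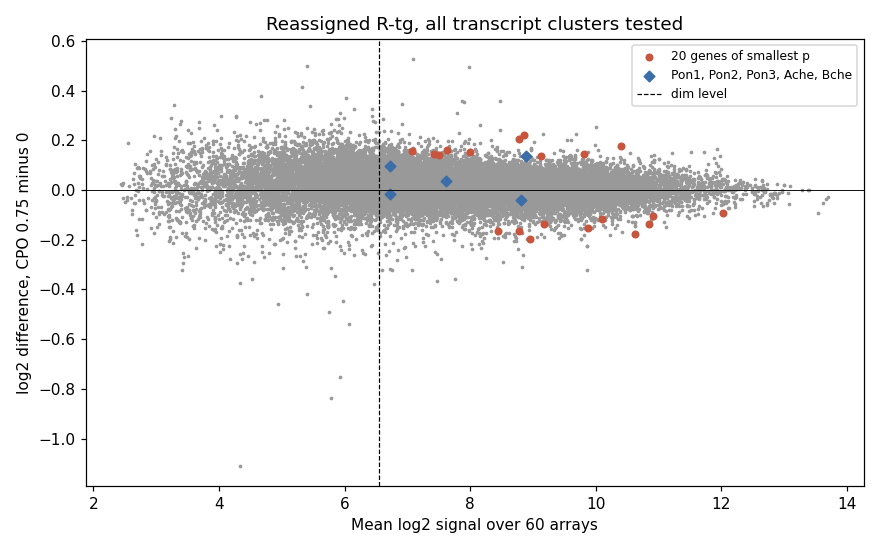
The log2 difference, dose 0.75 minus dose 0 (vertical axis), is plotted against the mean log2 signal over 60 arrays (horizontal axis) for the 21789 transcript clusters tested, with the dim level of 6.54 as a dashed line. The 20 genes of smallest p (red) lie within the range of other genes of like signal, the blue diamonds of Pon1, Pon2, Pon3, Ache and Bche run from -0.04 for Pon1 to 0.14 for Ache, and the lowest point is Bpifb9b at -1.11.

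Pon2 and Pon3 did not pass the test, and Pon1, whose signal was used to recognise the order, is given without one. Pon1 had a mean log2 signal of 10.02 ± 0.06 (SD, n = 5) at dose 0 and 9.98 ± 0.08 (SD, n = 5) at dose 0.75. Pon2, an intracellular member of the family, had 7.61 ± 0.10 and 7.65 ± 0.05, a difference of 0.04 (SE 0.07) that was 0.002 without R-tg dose 0 replicate 3. Pon3, carried on high density lipoprotein like Pon1, had 6.75 ± 0.12 and 6.73 ± 0.14, a difference of -0.02 (SE 0.07), and its sign turned when R-tg dose 0 replicate 4 or R-tg dose 0.75 replicate 4 was left out (0.02 and 0.03). The adjusted p was 0.999 for Pon2 and for Pon3.

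Ache, which encodes the acetylcholinesterase that CPO inhibits, had log2 signals of 9.02, 8.86, 8.84, 8.90 and 8.99 at dose 0 and 9.13, 9.13, 9.02, 9.05 and 8.96 at dose 0.75. The groups overlap. The difference was 0.14 (SE 0.06; 95% confidence interval 0.01 to 0.27; adjusted p = 0.999). At 0.85 mg/kg/d, where the mean was 8.88 ± 0.13 (SD, n = 5), the difference from the same dose 0 arrays was -0.04 (SE 0.06, adjusted p = 0.789). Bche, the related butyrylcholinesterase, had 6.84, 6.65, 6.62, 7.10 and 6.76 at dose 0 and 6.95, 6.91, 6.84, 6.98 and 6.79 at dose 0.75, a difference of 0.10 (SE 0.08, adjusted p = 0.999). These are transcript signals of pooled whole brain, and enzyme activity was not analysed here.

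Cholinergic genes taken as a list had mostly higher values, with none passing the test. The list held 11 measured genes of cholinesterases and cholinergic neurons, with Ache among them. At dose 0.75, 10 of the 11 were higher and 1 lower, with a median difference of 0.090 beside 0.015 over all genes tested. Of the 11, 0 (0%) passed. The median was 0.056 without R-tg dose 0 replicate 5. Slc18a3, the vesicular acetylcholine transporter, had 7.48, 7.56, 6.85, 7.33 and 7.26 at dose 0 and 7.33, 7.48, 7.55, 7.48 and 7.52 at dose 0.75. Its lowest value lies on R-tg dose 0 replicate 3, and its difference of 0.18 (SE 0.09) was 0.07 without that array. Prima1, the membrane anchor of acetylcholinesterase, differed by 0.11 (SE 0.09), or 0.03 without R-tg dose 0 replicate 5, and Ngfr, the low affinity neurotrophin receptor of basal forebrain cholinergic neurons, by 0.11 (SE 0.06).

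Of 21 muscarinic and nicotinic receptor genes, 17 were higher and 4 lower, with a median of 0.039 (0.065 without R-tg dose 0.75 replicate 1) and 0 passing. Of the 21, 13 had a mean signal above the dim level. Chrm4, a muscarinic receptor, had the largest difference of the list, 0.14 (SE 0.07), between means of 7.12 ± 0.08 and 7.26 ± 0.13 (SD, n = 5). The nicotinic subunits Chrnd, Chrna10 and Chrnb4 differed by 0.12 each, and Chrnd and Chrna10 lay below the dim level. Without R-tg dose 0 replicate 5 the differences of Chrnd and Chrna10 were 0.03 and 0.04, and without R-tg dose 0.75 replicate 3 that of Chrnb4 was 0.08. Of 27 measured serine hydrolases that organophosphates can bind, 20 were higher and 7 lower, with a median of 0.030 and 0 passing. Without R-tg dose 0 replicate 3, 15 were higher and 12 lower with a median of 0.008, and without R-tg dose 0 replicate 1 the median was 0.013. The peptidase Tpp2 was lower by 0.10 on the log2 scale (difference -0.10, SE 0.06), and the lipases Abhd6 and Mgll, which hydrolyse the endocannabinoid 2-arachidonoylglycerol, differed by 0.10 (SE 0.05) and 0.09 (SE 0.07), the latter 0.02 without R-tg dose 0 replicate 3.

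The genes of smallest p are given as values, since none passed. The 10 with higher values at dose 0.75 differed by 0.14 to 0.22 on the log2 scale and the 10 with lower values by -0.20 to -0.09, each with an adjusted p of 0.999. The groups did not overlap for 5 of the 10 higher and 7 of the 10 lower genes, which is a property of choosing by p and is not support. All 20 kept their direction when any single array of the 10 was left out, which likewise follows from choosing by p and is not support.

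Laptm4b, a lysosomal membrane protein, had log2 signals of 8.76, 8.82, 8.44, 8.88 and 8.91 at dose 0 and 8.98, 9.02, 8.99, 8.99 and 8.94 at dose 0.75. The groups do not overlap, and the lowest array, R-tg dose 0 replicate 3, widens the difference of 0.22 (SE 0.07), which was 0.14 without it. Haghl, a relative of the glyoxalase enzyme hydroxyacylglutathione hydrolase, had 8.86, 8.64, 8.54, 8.78 and 8.68 at dose 0 and 9.04, 9.02, 8.74, 8.85 and 8.88 at dose 0.75. Its groups overlap, with a difference of 0.20 (SE 0.05). Atp5mpl, a small subunit of mitochondrial ATP synthase, had 10.23, 10.37, 10.14, 10.38 and 10.38 against 10.47, 10.46, 10.55, 10.44 and 10.47, with no overlap and a difference of 0.18 (SE 0.05).

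Etv4, an ETS transcription factor that responds to fibroblast growth factor signals, had 7.07, 7.08, 6.96, 7.05 and 7.0 at dose 0 and 7.22, 7.24, 7.18, 7.20 and 7.10 at dose 0.75. All 5 exposed arrays lie above all 5 controls, by a mean of 0.16 (SE 0.05). Slc41a3, a magnesium transporter, and Krt222, a keratin-like protein, also had groups that did not overlap, with differences of 0.15 (SE 0.05) and 0.14 (SE 0.04). Sgsh, the lysosomal sulfamidase that degrades heparan sulfate, differed by 0.14 (SE 0.04) with overlapping groups. Overlap was also seen for the RNA-binding protein gene Pcbp3 (0.14, SE 0.04), the zinc finger gene Zscan25 (0.16, SE 0.05) and Dtd1, which removes D-amino acids from transfer RNA (0.14, SE 0.05).

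Among the lower genes, Nap1l1, a histone chaperone of dividing and differentiating neural cells, had 10.75, 10.75, 10.73, 10.68 and 10.74 at dose 0 and 10.60, 10.54, 10.49, 10.55 and 10.58 at dose 0.75. The exposed arrays all lie below the controls, with a difference of -0.18 (SE 0.05). Mettl4, a methyltransferase, had 9.03, 9.13, 9.14, 9.04 and 9.12 against 8.93, 8.81, 8.93, 8.88 and 8.92, with no overlap and a difference of -0.20 (SE 0.06). Nipbl, which loads cohesin onto chromosomes, had 9.95, 9.99, 10.09, 9.95 and 9.998 against 9.84, 9.77, 9.83, 9.86 and 9.91, with no overlap and a difference of -0.15 (SE 0.05).

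Vcan, the extracellular matrix proteoglycan versican, differed by -0.11 (SE 0.03), and its groups did not overlap. The same held for Nbas, of Golgi to endoplasmic reticulum transport (-0.16, SE 0.05), the transcription factor gene Sp4 (-0.13, SE 0.05) and Fndc3a, a fibronectin type III domain protein (-0.11, SE 0.04). Overlapping groups and lower values were found for Celf2, a splicing regulator (-0.09, SE 0.03), Ppp2r3a, a regulatory subunit of protein phosphatase 2A (-0.16, SE 0.05), and Zeb2, a repressor needed for cortical neuron fate (-0.14, SE 0.05). For Zeb2 and Vcan the highest control was R-tg dose 0 replicate 3, and without it the differences were -0.09 and -0.08.

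**Figure D3:**
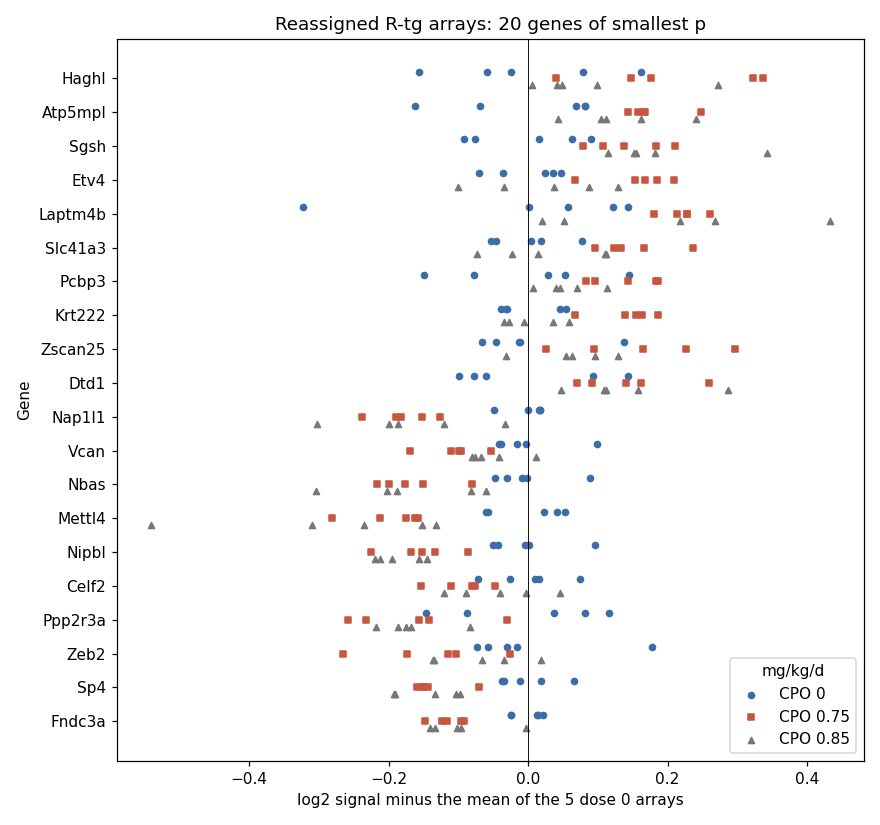
For the 20 genes of smallest p, each array's log2 signal minus the mean of the 5 dose 0 arrays (horizontal axis) is shown by gene (vertical axis), with blue circles for dose 0, red squares for dose 0.75 and grey triangles for dose 0.85. The red and blue points separate for 12 of the 20 genes, 5 higher and 7 lower, and the low blue point of Laptm4b at 8.44 is R-tg dose 0 replicate 3.

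The 0.85 mg/kg/d arrays share the dose 0 arrays with the comparison at 0.75, so values of both doses stand side by side and their likeness is not a result. At 0.85, 0 of 21789 transcript clusters passed (0%), with a smallest adjusted p of 0.180, while 2838 (13.0%) had an unadjusted p under 0.05 and the median difference was 0.038. Mettl4 differed from dose 0 by -0.20 at 0.75 and by -0.27 (SE 0.06) at 0.85. Nap1l1 had -0.18 and -0.17, and Laptm4b 0.22 and 0.20. Etv4 had 0.16 and 0.02, Krt222 0.14 and 0.01, and Slc41a3 0.15 and 0.03.

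In the other genotypes the differences of the same 20 genes at 0.75 mg/kg/d lay between -0.11, for Haghl in KO, and 0.08, for Krt222 in Q-tg. Because the 20 were chosen by p in R-tg, smaller differences in the other genotypes are a property of that choice and not a result. Laptm4b differed by 0.07 in WT, 0.03 in Q-tg and -0.06 in KO, and Nap1l1 by 0.01, 0.00 and -0.05. The R-tg response, dose 0.75 minus dose 0, was then set against that of each other genotype by an interaction contrast. Against WT, 0 of 21789 transcript clusters passed (0%), while 1654 (7.59%) had an unadjusted p under 0.05, and the lowest adjusted p was 0.653. Against Q-tg, 0 passed (0%), 607 (2.79%) had an unadjusted p under 0.05, and the lowest adjusted p was 0.999. Against KO, 0 passed (0%), 1055 (4.84%) had an unadjusted p under 0.05, and the lowest adjusted p was 0.929. A difference between the R-tg response at this dose and that of another genotype was therefore not detectable with 5 arrays a group.

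For each of these contrasts the 5 genes of smallest p are given as values. Against WT, Ccnt1, the cyclin of the elongation factor P-TEFb, had -0.11 in R-tg and 0.20 in WT, a difference of responses of -0.31 (SE 0.08). Slc12a9, of the cation-chloride cotransporter family, had 0.10 and -0.16 (difference 0.27, SE 0.07), Adamtsl1 0.09 and -0.17 (0.26, SE 0.07), Fam131c 0.12 and -0.12 (0.25, SE 0.06), and the transcription factor gene Sp3 -0.09 and 0.14 (-0.22, SE 0.06). Each of these 5 had an adjusted p of 0.653. Against KO, Cirbp, a cold-inducible RNA-binding protein, had 0.25 in R-tg and -0.24 in KO, a difference of 0.49 (SE 0.12, adjusted p = 0.929).

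Haghl and Pcbp3, named above, were among the 5 of smallest p against KO, at 0.31 (SE 0.08) and 0.21 (SE 0.06). The others were Ralgapa1, a RalGAP subunit (-0.23, SE 0.06), and Aff2, an RNA-binding nuclear protein (-0.21, SE 0.06), beside Cirbp. Against Q-tg, Etv4 had 0.16 in R-tg and -0.09 in Q-tg, a difference of 0.25 (SE 0.07). These contrasts contain the R-tg difference by which Haghl, Pcbp3 and Etv4 were chosen, so their return here is not a second observation. Zfp672 had the largest of the 5 differences from Q-tg, -0.48 (SE 0.14), followed by the protocadherin Pcdhb3 at -0.30 (SE 0.09), the centrosomal gene Cep131 at 0.24 (SE 0.07) and Fam53a at 0.19 (SE 0.06). All 5 differences from Q-tg had an adjusted p of 0.999.

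Groups of genes were then described by counts, beside 60.2% higher and a median of 0.015 over all genes tested. No member of any of the 33 lists passed the test. Single arrays weigh heavily in these medians: for 30 of the 33 lists, leaving out some 1 of the 10 arrays moved the median by over 1.5 times or turned its sign, and for 12 the sign turned. Of 43 respiratory chain subunits, 40 were higher and 3 lower at dose 0.75, with a median of 0.042. Ndufa4, an accessory subunit of cytochrome c oxidase, had 9.73, 9.83, 9.57, 9.98 and 9.99 at dose 0 and 9.99, 10.02, 9.98, 9.99 and 9.89 at dose 0.75, a difference of 0.15 (SE 0.06) that was 0.09 without R-tg dose 0 replicate 3. Sdhd, of succinate dehydrogenase, differed by 0.12 (SE 0.07), Ndufa1 by 0.11 (SE 0.09) and Ndufa6 by 0.10 (SE 0.06). Without R-tg dose 0 replicate 3, Ndufa1 and Ndufa6 differed by 0.05 and 0.07, 33 of the 43 were higher and the median was 0.023. The 38 cytosolic ribosomal protein genes had 25 higher, 13 lower and a median of 0.024. Leaving out R-tg dose 0 replicate 3, they had 19 higher, 19 lower and a median of 0.007. Leaving out any 1 of 4 other arrays gave a median between 0.010 and 0.014. The median was 0.019 without R-tg dose 0.75 replicate 2 and 0.0239 without R-tg dose 0.75 replicate 3.

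Stress and metabolism lists had medians from -0.019 to 0.040. Of 25 NRF2 oxidative stress genes, 19 were higher with a median of 0.030, which ran from 0.010 without R-tg dose 0 replicate 3 to 0.045 without R-tg dose 0.75 replicate 5. Nqo1, a quinone reductase with a mean signal below the dim level, differed by 0.15 (SE 0.08), and Slc7a11, the cystine transporter, by 0.14 (SE 0.07). Among the 6 lower genes, Gstm2 differed by -0.12 (SE 0.06), or -0.05 without R-tg dose 0.75 replicate 3. Of 24 xenobiotic metabolism genes, 18 were higher with a median of 0.040 (0.026 without R-tg dose 0.75 replicate 3 or 4, 0.066 without R-tg dose 0.75 replicate 1), and the cytochrome P450 gene Cyp2j9 differed by 0.14 (SE 0.06). The integrated stress response had 12 of 20 higher (median 0.009, and from -0.012 without R-tg dose 0 replicate 3 to 0.021 without R-tg dose 0 replicate 5), with Sesn2, a target of that response, at 0.15 (SE 0.05). The heat shock genes had 10 of 13 lower (median -0.019, and -0.009 without R-tg dose 0.75 replicate 5), with Chordc1, a co-chaperone, at -0.18 (SE 0.11). Among the 3 higher were Hspa1a at 0.09 (SE 0.06) and Bag3 at 0.09 (SE 0.08). They were at 0.05 without R-tg dose 0.75 replicate 3 and 0.04 without R-tg dose 0.75 replicate 2, respectively.

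Of 18 immediate early genes, which neurons induce on activity, 15 were higher with a median of 0.060. Egr1 had 6.98, 7.10, 7.05, 7.29 and 7.0 at dose 0 and 7.24, 7.20, 7.28, 7.04 and 7.28 at dose 0.75, a difference of 0.12 (SE 0.06) with overlapping groups. Fos, Fosb and Ier2 differed by 0.14, 0.13 and 0.13, with Fos at 0.21 without R-tg dose 0.75 replicate 1 and Fosb at 0.07 without R-tg dose 0 replicate 5. Without R-tg dose 0 replicate 3, 16 of the 18 were higher and the median was 0.060.

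Of 17 monoamine neuron genes, 16 were higher with a median of 0.086. An unadjusted limma p under 0.05 was found for 3 of the higher genes and for the 1 lower gene, beside 2.46% higher and 1.18% lower over all genes tested. Th, the rate-limiting enzyme of catecholamine synthesis, had 7.59, 7.52, 7.47, 7.54 and 7.56 at dose 0 and 7.65, 7.73, 7.76, 7.63 and 7.73 at dose 0.75. The groups do not overlap, and the difference was 0.16 (SE 0.07, adjusted p = 0.999), beside 0.20 (SE 0.07) at 0.85. The midbrain factors Foxa2, Lmx1b and En1 differed by 0.16 (SE 0.07), 0.14 (SE 0.08) and 0.12 (SE 0.05), and Lmx1b by 0.09 without R-tg dose 0 replicate 5. The list median was 0.034 without R-tg dose 0 replicate 3. In pooled whole brain, a difference in the number of cells of a type and one in RNA per cell cannot be told apart.

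Of 43 axon guidance genes, 29 were lower with a median of -0.028. The ephrin receptor Epha3 had 9.23, 9.33, 9.49, 9.32 and 9.39 at dose 0 and 9.23, 9.01, 9.23, 9.22 and 9.27 at dose 0.75, a difference of -0.16 (SE 0.06) with overlapping groups. Plxna4 and Epha7, also axon guidance receptors, differed by -0.12 (SE 0.04) and -0.11 (SE 0.05), and the secreted semaphorin Sema3d by -0.13 (SE 0.07). Without R-tg dose 0 replicate 3, 33 of the 43 were lower, the median was -0.024 and the difference of Epha7 was -0.07. With R-tg dose 0 replicate 5 left out, 24 were lower and 19 higher with a median of -0.011. At 0.85 mg/kg/d the median, from the same dose 0 arrays, was 0.003.

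Of 20 cortical projection neuron genes, 16 were lower with a median of -0.022, which ran from -0.055 without R-tg dose 0 replicate 1 to -0.012 without R-tg dose 0.75 replicate 2. Rorb, a layer 4 factor in the mature cortex, had 8.93, 8.91, 9.18, 8.88 and 8.92 at dose 0 and 8.76, 8.74, 8.88, 8.88 and 8.81 at dose 0.75, a difference of -0.15 (SE 0.06) in which the highest exposed array lies just under the lowest control, and the difference was -0.09 without R-tg dose 0 replicate 3. Neurod6, Sox5 and Neurog2 differed by -0.13 (SE 0.07), -0.12 (SE 0.05) and -0.10 (SE 0.07), with Neurod6 at -0.08 without R-tg dose 0.75 replicate 2 and Neurog2 at -0.06 without R-tg dose 0.75 replicate 4. At 0.85 mg/kg/d the same list had a median of 0.057, from the same dose 0 arrays. Of 31 synapse genes, 20 were lower with a median of -0.012, and without R-tg dose 0 replicate 3, 15 were lower and 16 higher with a median of 0.0009. Gabra2, a GABA receptor subunit, differed by -0.32 (SE 0.11), or -0.17 without that array, whose signal of 10.56 was the highest of the 10.

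Of 20 astrocyte and radial glia genes, 14 were higher with a median of 0.050. Gfap, an astrocyte filament protein, differed by 0.14 (SE 0.07) and Agt, the angiotensinogen gene, by 0.19 (SE 0.09). Aldoc, a glycolytic enzyme of astrocytes, differed by 0.14 (SE 0.06), or 0.06 without R-tg dose 0 replicate 3. Without that array 11 of the 20 were higher and the median was 0.018. With R-tg dose 0 replicates 3 and 4 both left out, 10 of the 20 were higher and the median was -0.001. Of 15 oligodendrocyte lineage genes, 14 were higher with a median of 0.052 (0.029 without R-tg dose 0 replicates 3 and 4), and the myelin gene Mbp differed by 0.12 (SE 0.05). The 1 lower gene, Opalin, had the largest difference of the list, -0.23. It ran from -0.29 to -0.16 when 1 of the 10 arrays was left out.

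**Figure D4:**
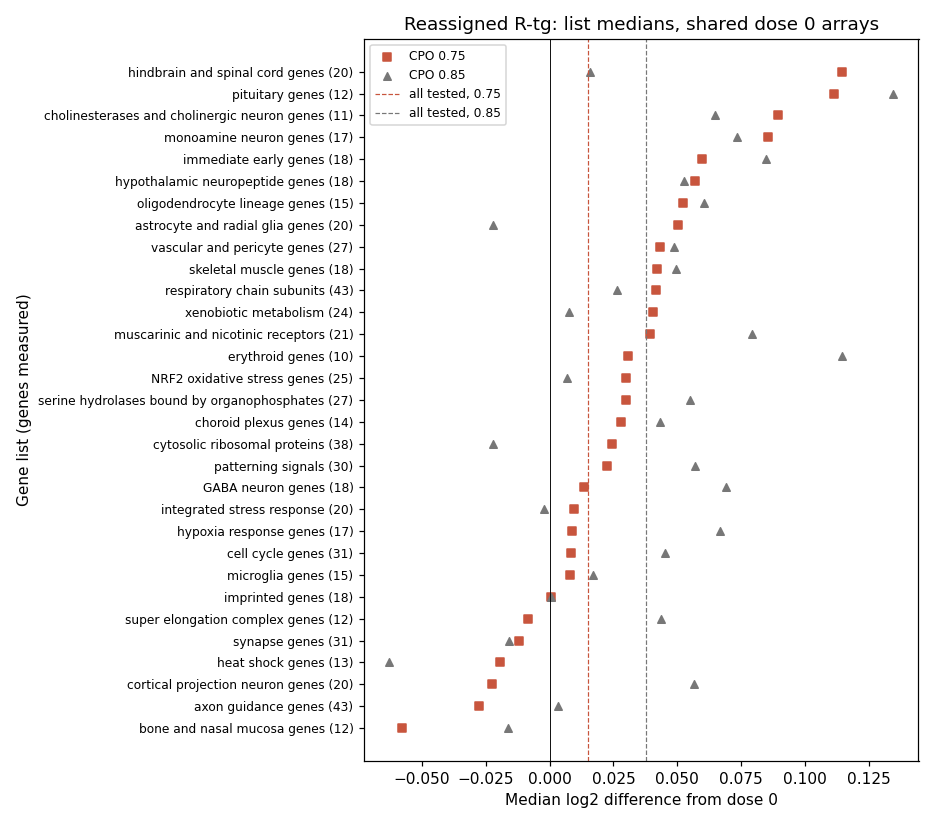
Median log2 difference from the shared dose 0 arrays (horizontal axis) is shown for 31 gene lists (vertical axis, number of genes measured in brackets), with red squares for 0.75 and grey triangles for 0.85 mg/kg/d, and dashed lines for all genes tested at each dose. At 0.75 the medians run from -0.058 for bone and nasal mucosa genes to 0.115 for hindbrain and spinal cord genes, around 0.015 for all genes tested.

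Several lists hold genes of regions or tissues that a brain pool can contain in varying amount, and 2 control arrays stood apart in them. The summed level of 12 bone and nasal mucosa genes, as a mean log2 signal, was 7.48 on R-tg dose 0 replicate 4 and 5.77 to 6.03 on the other 4 dose 0 arrays, against 5.90 to 6.04 at dose 0.75. Without that array 10 of the 12 were higher at dose 0.75 and the median turned from -0.058 to 0.048. Col1a1, a collagen of bone and vessel walls, differed by -0.31, or 0.07 without it. Of the 12 bone and nasal mucosa genes, 3 had a mean signal above the dim level.

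R-tg dose 0 replicate 3 was lowest in 20 hindbrain and spinal cord genes, of which 10 had a mean signal above the dim level. The list mean ran from 6.25 to 6.94 at dose 0 and from 6.71 to 6.78 at dose 0.75, with 17 of 20 genes higher and a median of 0.115. Slc6a5, the glycine transporter of inhibitory neurons in hindbrain and cord, had 8.54, 8.66, 6.96, 7.87 and 8.52 at dose 0 and 8.63, 8.37, 8.57, 8.41 and 8.34 at dose 0.75. Its difference of 0.36 (SE 0.26) was 0.07 without replicate 3. The list median was 0.044 without replicate 3, 0.183 without replicate 2 and -0.006 without replicates 3 and 4. The part of these arrays in the values of the brain gene lists was not tested beyond leaving them out. R-tg dose 0 replicates 3 and 4 also had low signals of Xist, the female transcript of the sex score, at 5.97 and 5.49. The other dose 0 arrays lay at 10.90 to 12.10. Leaving both out therefore also changes the sexes in the dose 0 pools. At dose 0.75, replicates 3 and 4 had low Xist, at 5.74 and 5.51.

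All 12 pituitary genes were higher, with a median of 0.111 (11 of 12 and 0.064 without R-tg dose 0 replicate 5). Of the 12, 8 had a mean signal above the dim level. Gh, growth hormone, had 10.11, 6.73, 6.75, 8.11 and 6.51 at dose 0 and 6.65, 10.06, 6.76, 9.69 and 6.83 at dose 0.75, so both groups hold high and low arrays. The other marker lists had 21 of 27 vascular and pericyte genes higher (median 0.043), 10 of 14 choroid plexus genes (0.028), 8 of 15 microglia genes (0.008), 13 of 18 skeletal muscle genes (0.042) and 8 of 10 erythroid genes (0.031), of which 4 lay above the dim level. When R-tg dose 0 replicate 5 was left out, 9 of the 18 muscle genes were higher with a median of -0.003, and 5 of the 10 erythroid genes with a median of 0.003. The choroid plexus median was 0.060 and the microglia median -0.011 without R-tg dose 0 replicate 2. Mean signals above the dim level were found for 26 of the 27 vascular, 11 of the 14 choroid plexus, 13 of the 15 microglia and 11 of the 18 muscle genes.

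Over 16 measures with a single value per array (signal quartiles, marker list means, Gh, Hoxa5 and a score of the sexes in the pool), the smallest p of an exact 2-sided permutation test over all splits of the 10 arrays into 5 and 5 was 0.119, for the astrocyte and the oligodendrocyte list, where the design allows 0.00794. All 16 had a Benjamini-Hochberg adjusted p of 0.913. The array median was 7.71 ± 0.03 (SD, n = 5) at dose 0 and 7.71 ± 0.01 at dose 0.75.

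**Figure D5:**
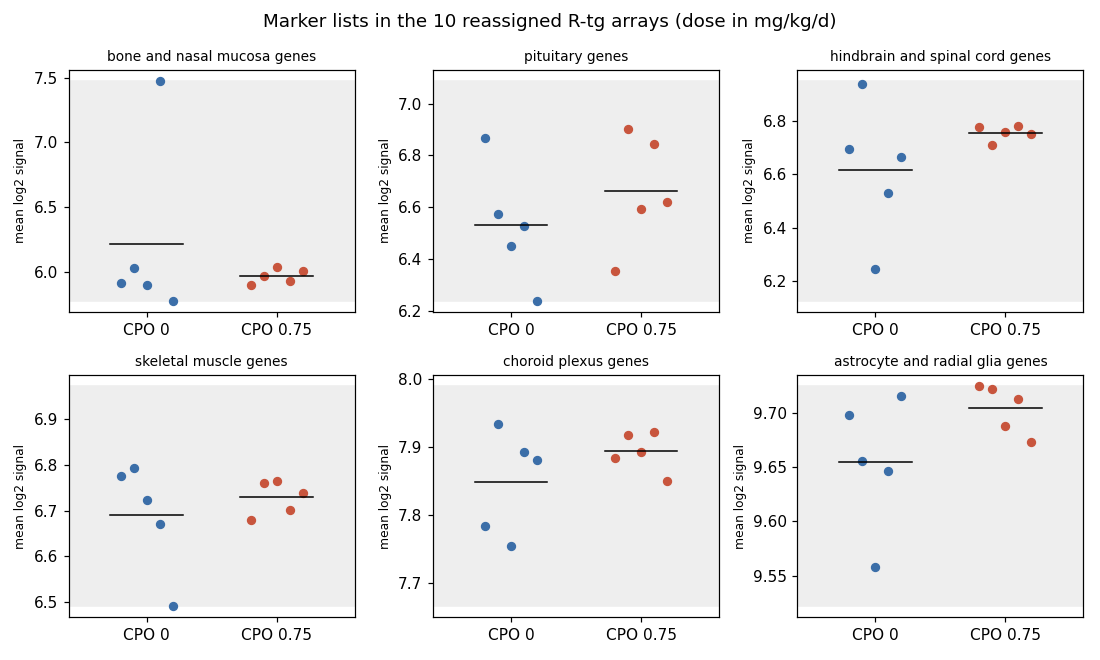
The mean log2 signal of 6 marker lists (vertical axes) is plotted for the 5 arrays of dose 0 (blue) and the 5 of dose 0.75 (red), with a line at each group's mean and a grey band for the range of all 60 arrays. R-tg dose 0 replicate 4 stands at 7.48 for bone and nasal mucosa genes, and the lowest dose 0 array for hindbrain and spinal cord genes, at 6.25, is replicate 3.

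The other lists had medians that single arrays moved by over 1.5 times, given here with the range when 1 of the 10 arrays was left out. The hypothalamic neuropeptide genes had 13 of 18 higher and a median of 0.057 (0.024 to 0.070). Patterning signals had 21 of 30 higher and 0.022 (0.009 to 0.039), GABA neuron genes 10 of 18 and 0.013 (-0.008 to 0.030), and hypoxia response genes 10 of 17 and 0.009 (-0.001 to 0.035). Cell cycle genes had 17 of 31 higher and 0.008 (-0.018 to 0.048), imprinted genes 9 of 18 and 0.0004 (-0.012 to 0.007), and super elongation complex genes 6 of 12 and -0.009 (-0.028 to 0.024). The arrays behind the ends of these ranges were R-tg dose 0 replicates 1 to 5 and R-tg dose 0.75 replicates 1 and 2.

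Under the labels as deposited, the R-tg arrays of dose 0.75 and dose 0 are other arrays than the 10 described. Their comparison also gave 0 calls (0%), its lowest adjusted p was 0.898, and 1157 transcript clusters (5.31%) had an unadjusted p under 0.05. The test of the R-tg response against that of WT called 1 transcript cluster (0.00459%) under those labels.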

How the data were processed

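Fetal brain RNA pools of 60 dams were measured on Affymetrix Mouse Gene 1.0 ST arrays. The deposited table holds log2 values that the authors made by RMA with the R package oligo in R 2.15.1, per the submitters' processing notes. The deposited session listing gives oligo 1.22.0. RMA subtracts background and quantile-normalises all arrays together, which reduces differences in overall signal between arrays. Some remained among the rows tested. Over the 60 arrays the median ran from 7.66 to 7.81 and the lower quartile from 6.19 to 6.52. The lowest lower quartile, 6.19, was that of R-tg dose 0 replicate 5. The values were used without further normalisation, and scanner values were not used here.

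The arrays' groups are inferred from the order of the value columns and differ from the deposited labels. The members and the gene lists were chosen with earlier results of these data known. Rows with exactly 1 gene symbol (21789, for 19938 genes) entered a limma 3.58.1 fit in R 4.3.3 with the 12 reassigned groups of all 60 arrays, without covariates. Contrasts were 2-sided, with Benjamini-Hochberg adjustment over all rows tested and a threshold of 0.05. 1621 rows with several symbols and 5448 without one were left out. Symbols came from the platform annotation, and 21698 were found in the RefSeq gene table.

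Named genes were Pon1, Pon2, Pon3, Ache and Bche, the 10 of smallest p in each direction above the dim level (none passed), 5 for each response difference, and up to 4 of largest difference in a described list, leaving out predicted genes and small RNAs. Entpd4, Kcna2, the largest differences and members of marker lists were named after their values were seen. Of several rows for a listed gene the brightest was taken. Measures with a single value per array had an exact permutation test. Replicate numbers did not pair the arrays. After each gene's group mean was subtracted, the correlation of same-numbered arrays ran from -0.15 to 0.17, and 2 of 5 pairs exceeded 0.1. No 2 of the 60 arrays held identical values.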

Additional observations from a re-analysis of the deposited data

Results flagged for a closer look

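Of 82 sets of 5 values examined (the named genes and array measures, in each group), 11 held an array whose gap to the nearest other exceeded Dixon's 95% critical value of 0.71 of the set's range. Chance flags about 1 set in 20. R-tg dose 0 replicate 3 was high for Vcan at 11.06 (others 10.92 to 10.96) and for Zeb2 at 11.10 (others 10.85 to 10.91), and low for the mean of the oligodendrocyte lineage genes at 7.40 (others 7.49 to 7.51). R-tg dose 0 replicate 4 was high for bone and nasal mucosa genes at 7.48 (others 5.77 to 6.03) and low for Nap1l1 at 10.68 (others 10.73 to 10.75). R-tg dose 0 replicate 5 was high for Zscan25 at 7.69 (others 7.49 to 7.55). R-tg dose 0.75 replicate 1 was high for Pon2 at 7.74 (others 7.60 to 7.64) and for Sp4 at 9.19 (others 9.10 to 9.12), and low for the array median at 7.69 (others 7.71 to 7.72) and the erythroid genes at 6.28 (others 6.43 to 6.47). R-tg dose 0.75 replicate 3 was high for Atp5mpl at 10.55 (others 10.44 to 10.47).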

How the results depend on the processing

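No transcript cluster was called at 0.75 mg/kg/d in R-tg under any alternative run, and the lowest adjusted p over them was 0.0865, with array weights. The number at an unadjusted p under 0.05, 794 in the report, was 1779 with array weights, 1351 with the lower quartile as covariate and 789 with the replicate block (0 called). Leaving out 1 array at a time it ran from 513 (without R-tg dose 0.75 replicate 2) to 1100 (without R-tg dose 0 replicate 4), with 528 without R-tg dose 0 replicate 3, and 0 to 0 called. With R-tg dose 0 replicates 3 and 4 both left out, an alternative chosen after seeing the data, it was 643. Each of the 3 response differences also kept 0 calls, except that the labels as deposited gave 1 against WT. Under the labels as deposited, which compare other arrays, the sign turned for Pon2 (-0.053), Ache (-0.097), Bche (-0.17), Haghl (-0.032), Sgsh (-0.025), Etv4 (-0.061), Laptm4b (-0.11), Pcbp3 (-0.042), Krt222 (-0.051), Zscan25 (-0.098), Dtd1 (-0.066), Nap1l1 (0.074), Vcan (0.015), Nbas (0.036), Mettl4 (0.044), Nipbl (0.016), Celf2 (0.033), Zeb2 (0.047) and Sp4 (0.047). The median of 21 of the 33 gene lists also had the opposite sign there (cholinergic -0.041, respiratory chain -0.026, monoamine -0.069). Pon3 ran from -0.060 to 0.030 when 1 array was left out, and was 0.026 without both control arrays. The planned sex score lacks Ddx3y, which has no row with a single symbol. The inferred order, 5 arrays a group and RMA across all arrays limit these results.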
